A study of Homo sapiens with 12 samples.

Results

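The 10 genes described here encode 6 matrix metalloproteinases (MMPs) and 4 tissue inhibitors of metalloproteinases (TIMPs): MMP1, MMP3, MMP10, MMP2, MMP14, MMP16, TIMP1, TIMP2, TIMP3 and TIMP4. They were taken by name from a table of 63241 genes measured by poly(A) RNA sequencing, and all 10 were among the 14718 genes with at least 1 TPM (a transcript level scaled for transcript length and library total) in at least 3 libraries. The cells were HEPM, a human line of embryonic palatal mesenchyme, transfected with a plasmid for the homeobox protein MSX1 and collected 6 h later. In 3 of the 4 groups the plasmid carried MSX1 with a single arginine replaced, by serine (R157S), lysine (R157K) or phenylalanine (R157F). In the fourth group it carried wild-type MSX1 (WT). Each group had 3 libraries, 12 in all, and every group received a plasmid for some form of MSX1 in cells that keep their own MSX1 gene. Cells with an empty vector or without plasmid were not analysed here, so each comparison is with the WT plasmid or between variants.

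MMPs are zinc-dependent proteases that cut collagens and other parts of the extracellular matrix, and most are secreted as inactive proenzymes. TIMPs bind active MMPs and block them. In the palate, remodelling of the matrix by these enzymes accompanies the growth and fusion of the palatal shelves. MSX1 is known mainly as a repressor of transcription, and MSX1 mutations are a known cause of orofacial clefting and missing teeth.

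Promoter sequence from RefSeq (GRCh38.p14) was at hand for 5 of the 10 genes: MMP10, MMP14, TIMP1, TIMP3 and TIMP4. The 120 bases before the annotated start are shown for a stromelysin gene of the chromosome 11 cluster that was low with R157K, for the membrane-type protease gene that was high with R157K and R157F, and for an inhibitor gene that was low with R157K. These are directions in the deposited values. Those of MMP10 and TIMP3 with R157K did not pass the test's threshold in the corrected values given below. Capitals mark matches, on either strand, to 4 motifs. The motif TGANTCA is the site of AP-1, the factor of the Jun and Fos families. The motif TATAAA is the box that binds the general transcription machinery near a start. The motif GGGCGG is the box bound by Sp factors. The motif TAATTG is the homeodomain core that MSX proteins can bind. The windows are chr11:102780629-102780748 on the minus strand, chr14:22836465-22836584 on the plus strand and chr22:32801585-32801704 on the plus strand.
MMP10: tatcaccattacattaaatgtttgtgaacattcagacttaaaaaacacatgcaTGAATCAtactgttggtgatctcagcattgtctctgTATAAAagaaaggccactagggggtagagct
MMP14: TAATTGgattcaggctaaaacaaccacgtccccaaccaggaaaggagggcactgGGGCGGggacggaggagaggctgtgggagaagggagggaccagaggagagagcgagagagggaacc
TIMP3: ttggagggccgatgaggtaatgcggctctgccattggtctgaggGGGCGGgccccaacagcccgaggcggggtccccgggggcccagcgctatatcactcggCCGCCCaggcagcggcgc

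The MMP10 window held an AP-1 match 67 to 61 bases before the start and a TATA match 31 to 26 bases before it. In the 250 bases before the start, an AP-1 match was found in 1 of the 5 genes with a sequence (6.57% of 35116 promoters of the same length), a TATA match in 1 (10.7%) and a TAATTG match in 1, MMP14 (6.7%). A GC box was found in 4 of the 5 (42.6% of promoters), all but MMP10. An ETS core (AGGAAG) was found in 2, TIMP1 and TIMP4 (28.7% of promoters). No match overlapped another. Guanine and cytosine (GC) made up 34.4% of the 250 bases at MMP10, 56.8% at MMP14, 64.8% at TIMP1, 72.4% at TIMP3 and 62.8% at TIMP4. The starts used here are those of RefSeq and differ from the GENCODE gene bounds given below. By those bounds the TIMP4 window lies inside the gene, and the TIMP1, MMP14 and TIMP3 windows run past the gene start. These matches describe the letters in the windows and say nothing of binding.

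Several features of the libraries bear on every value below. Between 13541 and 14016 genes reached 1 TPM in a library, and the table keeps no read depth. MSX1 itself stood at 451 ± 168 TPM with R157S, 500 ± 146 TPM with R157K, 872 ± 213 TPM with R157F and 337 ± 111 TPM with WT (SD, n = 3 each), and plasmid and endogenous transcripts cannot be told apart. Ribosomal protein genes took 6.36% to 6.63% of TPM with R157S, 11.6% to 13.9% with R157K, 7.49% to 7.86% with R157F and 4.53% to 6.22% with WT. Mitochondrially encoded genes took 6.11% to 6.33% with R157S, 6.26% to 7.31% with R157K, 5.31% to 5.59% with R157F and 6.36% to 9.96% with WT. Changes against WT also ran with the GC content of transcripts across 14220 genes (Spearman's rho 0.76, 0.72 and 0.81 for R157S, R157K and R157F, a description across genes, which are not independent replicates). With transcript length rho was -0.20, -0.41 and -0.25. For R157S against R157K rho was -0.48 with GC content and 0.48 with length. For R157S against R157F it was -0.65 and 0.26, and for R157K against R157F 0.08 and -0.48. WT replicate 2 and R157K replicate 2 stood apart from their groups in several of the genes below. For the MMP and TIMP genes listed above, values without these libraries are given in 2 cases. These are a changed call in the deposited values and a called log2 change that moved by over 1.5 times. Uncalled differences could move by more than this. All 9 mesenchymal markers checked, among them VIM and COL1A1, reached 1 TPM in at least 3 libraries. Markers of other cell types reached that level in 3 of 8 epithelial, 2 of 5 endothelial, 1 of 5 neural, 2 of 5 muscle and 2 of 7 immune genes. The immune list summed to 578 to 672 TPM with R157S, 278 to 371 TPM with R157K, 451 to 689 TPM with R157F and 242 to 500 TPM with WT. The endothelial list summed to 9.9 to 11.7 TPM with R157S, 4.81 to 5.06 TPM with R157K, 5.38 to 7.36 TPM with R157F and 11.9 to 12.2 TPM with WT, so this sum was lower with all 3 variants, without overlap. The fall lay mostly in PECAM1, at 5.07 to 7.34 TPM with R157S, 1.7 to 2.33 with R157K, 2.16 to 3.59 with R157F and 8.21 to 8.66 with WT. TEK was higher with R157S (3.88 to 4.96 TPM) than with WT (3.1 to 3.62 TPM). With R157K and R157F the TEK values overlapped with WT. Epithelial markers summed to 25.8 to 28.2 TPM with R157S, 25.1 to 33.4 TPM with R157K, 27 to 29.3 TPM with R157F and 15.1 to 23.9 TPM with WT. The neural list, mostly TUBB3, summed to 198 to 213 TPM with R157S and 168 to 229 TPM with R157K. It summed to 233 to 261 TPM with R157F and 113 to 192 TPM with WT. Muscle markers summed to 4.09 to 6.01 TPM with R157S, 3.1 to 4.41 with R157K, 6.1 to 6.87 with R157F and 3.45 to 4.51 with WT. Most of the immune sum was CD68, at 232 to 660 TPM over all libraries, whereas PTPRC did not pass 0.13 TPM and CD3E and MS4A1 were listed at 0. The part of these features in the results was not tested, except where values with the trends on GC content and length removed are given.

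With the wild-type protein, MMP1 was the eleventh most abundant of the tested genes, and MMP transcripts stood far above those of the inhibitors in sum. With each variant MMP1 and MMP3 fell. The summed TIMP transcripts lay above every WT library with R157K and R157F and overlapped with WT with R157S. The 6 MMP genes summed to 4698 ± 253 TPM with R157S, 3532 ± 347 TPM with R157K, 4525 ± 160 TPM with R157F and 6098 ± 322 TPM with WT (SD, n = 3 each). The 4 TIMP genes summed to 2529 ± 55.3 TPM with R157S, 2948 ± 31.6 TPM with R157K, 2854 ± 211 TPM with R157F and 2187 ± 372 TPM with WT. MMP1 alone made up 62.2% to 63.8% of the MMP sum with R157S, 55.5% to 66.1% with R157K, 56.8% to 57% with R157F and 77.1% to 82.2% with WT. TIMP1 alone made up 69.5% to 73.3% of the TIMP sum with R157S and 83.1% to 85.9% with R157K. Its share was 75.7% to 79.3% with R157F and 62.2% to 73.4% with WT. In TPM, TIMP2 and TIMP3 were lower than WT with R157K, and TIMP3 with R157F, so the higher TIMP sum was not shared by every inhibitor. In bulk RNA of this kind, fewer cells that make a transcript and less transcript per cell cannot be told apart.

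**Figure D1:**
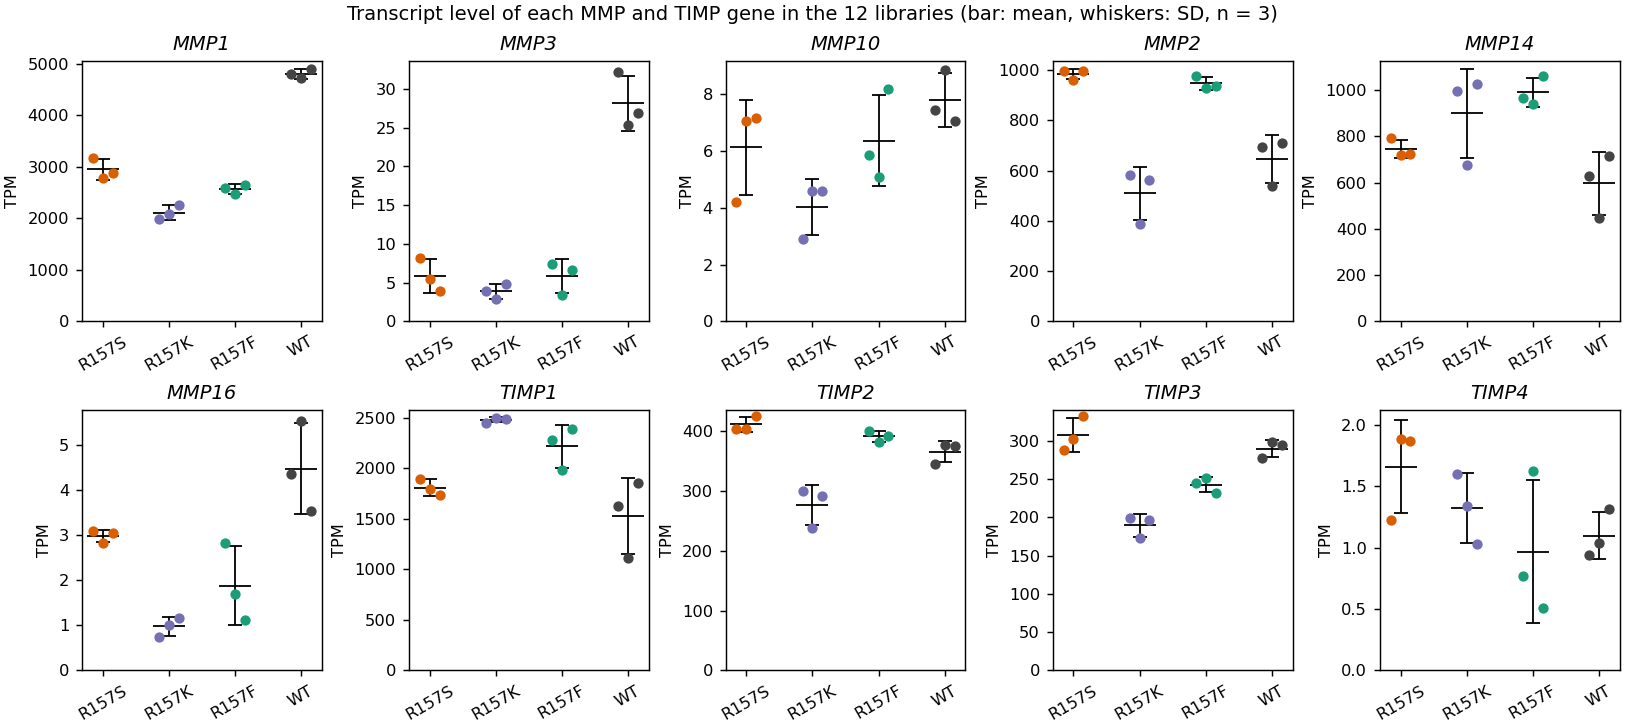
Level of each of the 10 genes in TPM (vertical axis, from 0) in the 12 libraries, by plasmid; points are libraries, bars the mean and whiskers the SD of 3 libraries. MMP1 and MMP3 sit highest in the 3 WT libraries, MMP2 is lowest with R157K, and TIMP1 is highest with R157K.

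Each gene was compared between plasmids with limma on log2(TPM + 1), fitted to all 14718 genes, and a gene was called when its Benjamini-Hochberg adjusted p lay below 0.05. In the test of all 4 plasmids together (limma's F test) 9 of the 10 genes were called, all but TIMP4, against 70.8% of all genes tested. MMP10 was lost from these without R157K replicate 1, WT replicate 1 or WT replicate 2 (limma adjusted p = 0.118, 0.0518 and 0.0599). With the trends on GC content and length removed, 4 of the 10 were called, MMP1, MMP3, MMP2 and MMP14, against 41.8% of all genes.

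Against WT, 3 of the 10 genes were called with R157S, where 20.4% of all genes were. Of these 1 was higher (7.6% of all genes) and 2 were lower (12.8%). With R157K 9 were called (63.6% of all genes), 2 higher (17.3%) and 7 lower (46.2%). With R157F 7 were called (58.2% of all genes), 3 higher (24.4%) and 4 lower (33.8%). Shares of this size are to be read against backgrounds that were high as well, and these 3 comparisons share the same WT libraries. With the trends removed 3 of the 10 were called with R157S (6.06% of all genes), 5 with R157K (42.4%) and 4 with R157F (28.8%). The libraries of variant and WT did not overlap in 6 of the 10 genes with R157S (43.6% of all genes), 7 with R157K (63.5%) and 8 with R157F (66.3%). For R157S the median log2 change of the 10 genes was 0.12, against -0.01 for all tested genes. For R157K these medians were -0.51 and -0.34, and for R157F -0.19 and -0.08. Median-ratio scaling of the libraries shifted the all-gene median of R157K against WT by 0.34, so called changes with R157K are also given relative to the all-gene median.

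MMP1, the interstitial collagenase, cuts the triple helix of fibrillar collagens. It lies on the minus strand at chr11:102789920-102798160 (GRCh38). Its level was 3175, 2792 and 2890.1 TPM in the R157S libraries, 1979.7, 2096 and 2263 TPM with R157K, 2595, 2472 and 2651 TPM with R157F, and 4809, 4719 and 4910 TPM with WT. Every variant library lay below every WT library, and the order of the means was WT, R157S, R157F and R157K, with no overlap between neighbours, although R157S and R157F did not differ past the test's threshold (log2 0.20, limma adjusted p = 0.141). MMP1 fell by 0.71 on the log2 scale with R157S (SE 0.08, adjusted p = 0.00243), by 1.19 with R157K (SE 0.08, adjusted p = 8.22e-07, or by 0.85 relative to all genes) and by 0.90 with R157F (SE 0.08, adjusted p = 4.69e-05). With the GC and length trends taken out the changes were -0.47, -0.59 and -0.45, and all 3 were still called (limma adjusted p = 0.0093, 1.89e-04 and 0.00247), as they were without any single library of the compared plasmids. With only the R157S and WT libraries in the model, the R157S change was no longer called (limma adjusted p = 0.0598). Among all tested genes, MMP1 ranked 26 by mean level with R157S, 56 with R157K, 39 with R157F and 11 with WT.

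MMP3, stromelysin-1, cuts proteoglycans and other matrix proteins and can activate the MMP1 proenzyme. It lies at chr11:102835801-102843803 on the minus strand. MMP3 stood at 8.16, 5.48 and 3.88 TPM with R157S, 3.94, 2.9 and 4.87 TPM with R157K, 7.45, 3.38 and 6.69 TPM with R157F, and 32.1, 25.4 and 27 TPM with WT. The 9 variant libraries overlapped one another and all lay well below the WT libraries. The log2 change was -2.13 with R157S (SE 0.27, adjusted p = 0.00401), -2.59 with R157K (adjusted p = 6.72e-06, or -2.25 relative to all genes) and -2.14 with R157F (adjusted p = 1.97e-04), all by limma. Only 11, 38 and 36 of the 14718 genes had a larger decrease with R157S, R157K and R157F. Removal of the trends left changes of -1.96, -2.04 and -1.78, all called, and MMP3 was also called when any single library of the compared plasmids was left out.

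MMP10, stromelysin-2, has a substrate range close to that of MMP3. Its gene, at chr11:102770503-102780628 on the minus strand, was expressed at 4.19, 7.04 and 7.15 TPM with R157S, 2.9, 4.59 and 4.58 TPM with R157K, 5.84, 5.08 and 8.17 TPM with R157F, and 7.44, 8.86 and 7.04 TPM with WT. The R157K libraries lay below all WT libraries, while those of R157S and R157F overlapped with WT. Only the R157K change was called (-0.82, SE 0.22, limma adjusted p = 0.00553, or -0.48 relative to all genes). It was not called after median-ratio scaling (-0.47, limma adjusted p = 0.0856) or with the trends removed (-0.31, limma adjusted p = 0.225).

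MMP1, MMP3 and MMP10 are neighbours in a cluster of 9 MMP genes that spans 435227 bases of chromosome 11, and the stretch from MMP10 to MMP3 covers 73301 bases. One further gene of the cluster, the collagenase gene MMP13, passed the filter on low values. It averaged 3.48 ± 0.918 TPM with R157S, 1.87 ± 0.2 TPM with R157K, 2.74 ± 0.393 TPM with R157F and 6.24 ± 1.12 TPM with WT (SD, n = 3 each). MMP13 fell by 0.70, 1.33 and 0.95 on the log2 scale (limma adjusted p = 0.0251, 3.62e-05 and 9.49e-04), and none of these changes was called once the trends were removed (limma adjusted p = 0.292, 0.0607 and 0.281). Of the other cluster genes, MMP12 reached 0.98 TPM at most, and MMP7, MMP8, MMP20 and MMP27 did not pass 0.17 TPM in any library. The GC content of the transcripts was 43.4% in MMP1, 44.8% in MMP3 and 43.7% in MMP10.

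MMP2, gelatinase A, cuts denatured collagen and type IV collagen and is activated at the cell surface by a complex of MMP14 and TIMP2. It lies at chr16:55389700-55506691 on the plus strand. MMP2 stood at 997, 961 and 996 TPM with R157S, 581, 389 and 561 TPM with R157K, 976, 929 and 938 TPM with R157F, and 695, 538 and 710.2 TPM with WT. The R157S and R157F libraries lay above every WT library, whereas those of R157K overlapped with WT. MMP2 rose with R157S (log2 0.62, SE 0.14, limma adjusted p = 0.022) and with R157F (0.56, SE 0.14, limma adjusted p = 0.00603). The R157S call was lost without R157S replicate 2 (limma adjusted p = 0.0779), R157S replicate 3 (0.0752) or WT replicate 2 (0.0548), and also when genes of low level were kept in the test (0.0641) or only these plasmids were in the model. With the trends removed both changes were smaller and still called (0.35 and 0.23, limma adjusted p = 0.015 and 0.0283).

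For R157K, the MMP2 change of -0.35 (SE 0.14, limma adjusted p = 0.0483) was no larger than that of a typical gene, at -0.01 relative to the all-gene median. After median-ratio scaling it was 0.06 (limma adjusted p = 0.704). It rested on R157K replicate 2, the lowest library, without which it was -0.17 (limma adjusted p = 0.202), and it was also lost without WT replicate 1 (0.143) or WT replicate 3 (0.14). With the trends removed it was -0.33 (limma adjusted p = 0.0024).

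MMP14, the membrane-type protease also known as MT1-MMP, cuts collagen at the cell surface and activates the MMP2 proenzyme. Its gene lies at chr14:22836557-22849027 on the plus strand, and its promoter window above held the TAATTG match. Levels were 792, 721 and 723 TPM with R157S, 997, 677 and 1026 TPM with R157K, 966, 941 and 1063 TPM with R157F, and 629, 447 and 714 TPM with WT. R157S and R157F libraries lay above all WT libraries, and R157K replicate 2 fell within the WT range. MMP14 rose with R157K (log2 0.59, SE 0.18, limma adjusted p = 0.0106, or 0.93 relative to all genes) and R157F (0.75, SE 0.18, limma adjusted p = 0.00346). Without R157K replicate 2 the R157K change was 0.79, and without WT replicate 2 it was 0.40, both called (limma adjusted p = 0.00128 and 0.0379). After median-ratio scaling it was 1.01 (limma adjusted p = 2.93e-04). With R157S the difference of 0.35 was not called (limma adjusted p = 0.156) unless WT replicate 3 was left out (0.49, limma adjusted p = 0.0496). Without WT replicate 2 the R157S difference was 0.15 (limma adjusted p = 0.544). Removal of the trends gave 0.02 with R157S, 0.46 with R157K and 0.28 with R157F, the last 2 still called (limma adjusted p = 0.00112 and 0.0321). When WT replicate 2 was left out as well, a combination chosen after seeing the data, the R157F values of MMP14 and MMP2 missed the threshold (0.22 and 0.21, limma adjusted p = 0.102 and 0.0676).

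MMP16, a second membrane-type protease (MT3-MMP), was far less abundant. Its long transcript of 11558 bases has a GC content of 36.4%, lower than that of all but 3.01% of tested genes. MMP16 was at 3.09, 2.84 and 3.05 TPM with R157S, 0.75, 1.02 and 1.17 TPM with R157K, 2.83, 1.7 and 1.12 TPM with R157F, and 4.37, 5.54 and 3.54 TPM with WT. No variant library reached the lowest WT library. It fell with R157K (-1.46, SE 0.21, limma adjusted p = 7.69e-05, or -1.12 relative to all genes) and R157F (-0.95, SE 0.21, limma adjusted p = 0.00269), but neither call held with the trends removed (-0.30 and -0.18, limma adjusted p = 0.181 and 0.466). The R157S difference was -0.44 (limma adjusted p = 0.137).

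TIMP1, a broad MMP inhibitor encoded at chrX:47582313-47586789 on the plus strand, was the most abundant TIMP transcript in every library. It measured 1899, 1793 and 1733 TPM with R157S, 2454, 2503 and 2488 TPM with R157K, 2285, 1980.3 and 2391 TPM with R157F, and 1623, 1113 and 1854 TPM with WT. All R157K and R157F libraries lay above all WT libraries, the R157S libraries overlapped with WT, and WT replicate 2 was the lowest of the 12. TIMP1 rose with R157K (0.73, SE 0.15, limma adjusted p = 0.00102, or 1.07 relative to all genes) and R157F (0.56, SE 0.15, limma adjusted p = 0.00716). After median-ratio scaling the R157K change was 1.15 (limma adjusted p = 9.36e-05). Without WT replicate 2 the changes were 0.52 with R157K and 0.35 with R157F, both called (limma adjusted p = 3.66e-04 and 0.00752). With R157S the TIMP1 change was 0.27 (limma adjusted p = 0.188). It was 0.06 without WT replicate 2 (limma adjusted p = 0.705) and 0.43, and called, without WT replicate 3 (limma adjusted p = 0.0318). The TIMP1 transcript has a GC content of 58.1% and a length of 892 bases, shorter than that of all but 8.71% of tested genes. With the trends on GC content and length removed, the changes were 0.09 for R157K and 0.02 for R157F, neither called (limma adjusted p = 0.428 and 0.875). Which of the 2 trends moved these values was not tested.

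TIMP2, which inhibits MMPs and also takes part in MMP2 activation, lies at chr17:78852977-78925387 on the minus strand. It stood at 404, 403.9 and 426 TPM with R157S, 299, 238 and 291 TPM with R157K, 400.2, 382 and 392 TPM with R157F, and 346, 376 and 375 TPM with WT. The R157K libraries were the lowest, and those of R157S and R157F lay slightly above WT. Only the R157K change was called (-0.41, SE 0.09, limma adjusted p = 0.00197), and it was close to that of all genes (-0.07 relative to the median). It was 0.00 after median-ratio scaling and -0.20 with the trends removed (limma adjusted p = 0.979 and 0.0428). When WT replicate 2 was left out as well, a setting chosen after seeing the data, the trend-removed value was -0.11 and not called (limma adjusted p = 0.116). An antisense transcript that overlaps TIMP2, AC022966.1, was listed at 18.9 TPM in R157F replicate 2 and at 0 in the other libraries. The strand setting of the authors' quantification is not given, so reads of the 2 genes cannot be told apart there.

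TIMP3, which binds to the extracellular matrix and inhibits ADAM proteases as well as MMPs, lies at chr22:32801701-32863043 on the plus strand. TIMP3 levels were 288, 302 and 332 TPM with R157S, 199, 173 and 196 TPM with R157K, 245, 252 and 232 TPM with R157F, and 277, 298 and 294 TPM with WT. R157K and R157F libraries lay below every WT library, and R157S overlapped with WT. It fell with R157K (-0.61, SE 0.09, limma adjusted p = 6.54e-05, or -0.27 relative to all genes) and with R157F (-0.25, SE 0.09, limma adjusted p = 0.0258). Neither was called after median-ratio scaling (-0.20 and -0.15) or with the trends removed (-0.05 and -0.09). The R157F call was also lost without R157F replicate 1, R157F replicate 3 or WT replicate 3 (limma adjusted p = 0.0582, 0.0924 and 0.0501).

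TIMP4, the fourth inhibitor, was near the filter limit, at 1.22, 1.88 and 1.87 TPM with R157S, 1.6, 1.34 and 1.03 TPM with R157K, 0.77, 1.62 and 0.51 TPM with R157F, and 0.94, 1.04 and 1.31 TPM with WT. All groups overlapped. No comparison of TIMP4 was called, and the limma adjusted p ran from 0.188 for R157S against R157F to 0.636 for R157F against WT.

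**Figure D2:**
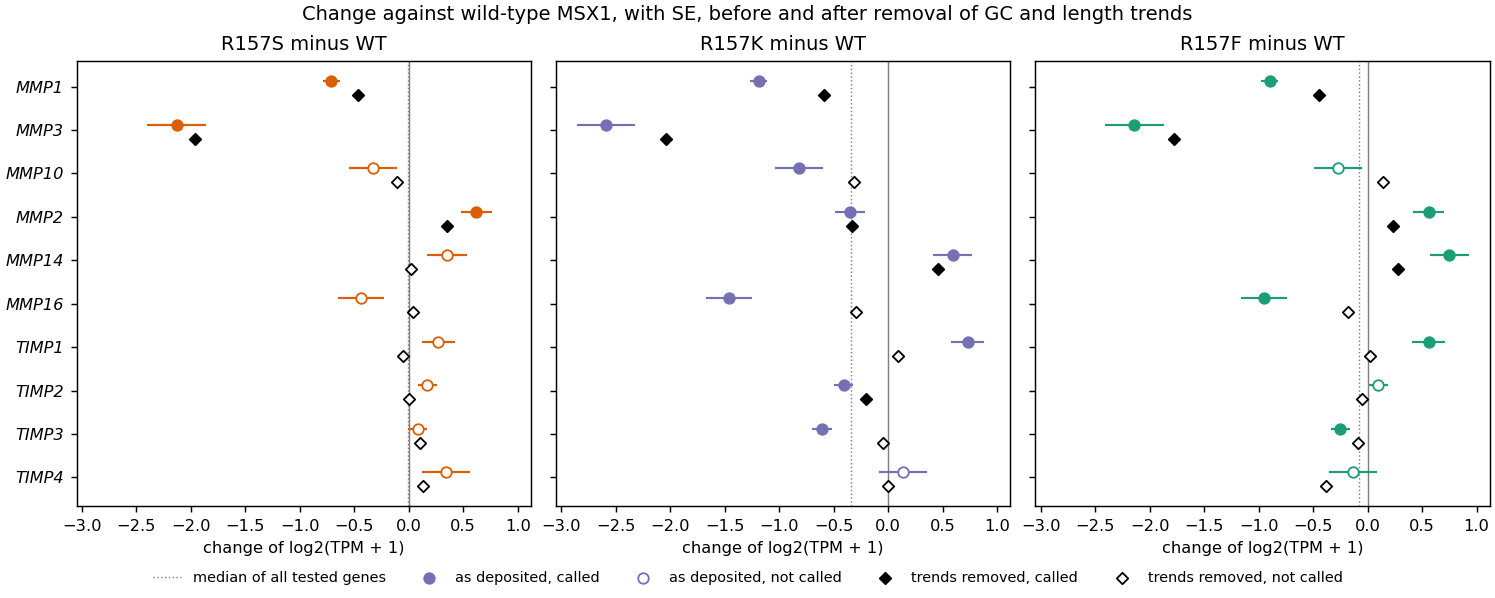
Change of log2(TPM + 1) against WT (horizontal axis) for each gene and variant; coloured circles with SE bars are the deposited values, black diamonds the values with trends on GC content and length removed, and filled symbols are called. MMP1 and MMP3 are filled and below 0 in all 3 panels in both versions, whereas TIMP1 moves to within 0.09 of 0.

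In the plot of change by GC content, MMP3 is the member farthest from the trend of the other genes. MMP16, MMP1, MMP10 and MMP3, the members lowest in GC content, have negative changes against WT with all 3 variants. MMP14, TIMP1 and MMP2, at 58.9%, 58.1% and 56.5%, have positive ones, apart from MMP2 with R157K.

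**Figure D3:**
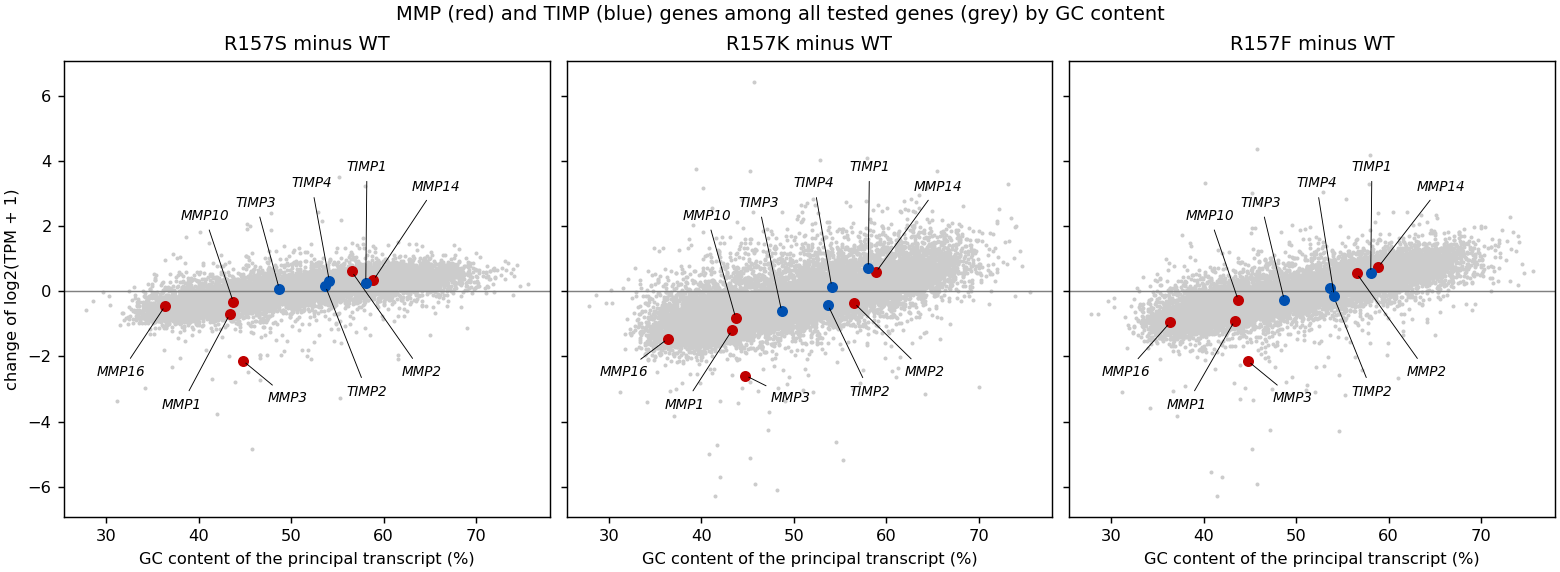
Change of log2(TPM + 1) against WT (vertical axis) by GC content of the principal transcript in percent (horizontal axis), with 1 panel per variant; grey points are all tested genes, red points MMPs and blue points TIMPs. MMP3, at a GC content of 44.8%, sits at -2.13, -2.59 and -2.14, and the members highest in GC content, MMP14 and TIMP1, sit above 0 in all panels.

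Between variants, R157K differed from both others in MMP1, MMP2, TIMP2 and TIMP3, which were called in both comparisons. For MMP1, TIMP2 and TIMP3 these calls were lost with the trends removed, and only those of MMP2 were kept. For R157S against R157K, 6 of the 10 genes were called (50.1% of all genes), 5 higher (42.2%) and 1 lower (7.9%) with R157S. For R157K against R157F 4 were called (29.7% of all genes), all lower with R157K, whereas of all genes 26.4% were lower and 3.3% higher. For R157S against R157F 1 was called (5.42% of all genes), and it was higher with R157S (4.31% of all genes were, and 1.11% were lower). With the trends removed the count was 2 for R157S against R157K (28.6% of all genes), 1 for R157K against R157F (11.6%) and 0 by limma for R157S against R157F (3.5%), where 4 had an unadjusted p under 0.05 in the deposited values. The libraries did not overlap in 6 genes in each of these comparisons (61.3%, 52.8% and 47.6% of all genes). The median of all genes was 0.33 for R157S against R157K and -0.27 for R157K against R157F, and scaling moved it by -0.32 and 0.26. The split of called genes moved with it, as 84.2% of all calls were higher with R157S than with R157K, against 46.6% after scaling, and 11.1% were higher with R157K than with R157F, against 66.2% after scaling.

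MMP2 was the clearest of these differences. At 985 ± 20.5 TPM with R157S and 511 ± 106 TPM with R157K (SD, n = 3 each), it was higher with R157S by 0.97 on the log2 scale (SE 0.14, limma adjusted p = 2.07e-04). It was lower with R157K than with R157F, at 948 ± 24.6 TPM, by -0.91 (SE 0.14, limma adjusted p = 0.00135). Both differences were called after median-ratio scaling (0.59 and -0.60), with the trends removed (0.68 and -0.55) and without any single library. For R157S against R157F the difference was 0.06 (limma adjusted p = 0.817), and no difference beyond the spread was seen.

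MMP1 was higher with R157S than with R157K (0.48, SE 0.08, limma adjusted p = 4.51e-04) and lower with R157K than with R157F (-0.29, SE 0.08, limma adjusted p = 0.0209). Neither held after median-ratio scaling (0.10 and 0.02, limma adjusted p = 0.404 and 0.908) or with the trends removed (0.11 and -0.13). The R157K against R157F call was also lost without R157K replicate 1, R157F replicate 1 or R157F replicate 3 (limma adjusted p = 0.0771, 0.0729 and 0.0719). MMP3 was called in no comparison between variants, with log2 differences of 0.45 for R157S minus R157K, 0.01 for R157S minus R157F and -0.44 for R157K minus R157F (SE 0.27 each).

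Among the inhibitors, TIMP3 was higher with R157S than with R157K (0.70, SE 0.09, limma adjusted p = 6.99e-05) and lower with R157K than with R157F (-0.36, SE 0.09, limma adjusted p = 0.0109). TIMP2 differed in the same comparisons by 0.58 and -0.51 (SE 0.09 each, limma adjusted p = 3.44e-04 and 0.00274). After median-ratio scaling only the TIMP3 difference between R157S and R157K was called (0.31, limma adjusted p = 0.0142), and the others were -0.05 for TIMP3 and 0.20 and -0.20 for TIMP2 (limma adjusted p = 0.793, 0.0944 and 0.179). Without the trends these 4 differences were 0.16, 0.03, 0.20 and -0.15, and none was called. TIMP1 was lower with R157S than with R157K (-0.46, SE 0.15, limma adjusted p = 0.0236), and that call was lost without R157S replicate 2 or 3 or any of the R157K libraries (limma adjusted p = 0.0507 to 0.0705). After median-ratio scaling it was -0.84 (limma adjusted p = 0.00201), and with the trends removed -0.14. The single gene called for R157S against R157F was TIMP3 (0.34, SE 0.09, limma adjusted p = 0.0456). With the replicate number as a block its adjusted p was 0.0676, and without any single library the adjusted p was between 0.066 and 0.187.

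MMP16, higher with R157S than with R157K by 1.02 (SE 0.21, limma adjusted p = 0.00192), completes the 6 genes called for these plasmids, and with the trends removed it was 0.35 (limma adjusted p = 0.159). MMP14 was not called between variants in the deposited values. For R157S against R157K its difference of -0.25 (limma adjusted p = 0.264) became -0.63 after scaling and -0.45 with the trends removed, both called (limma adjusted p = 0.0127 and 0.00242). It was also called without R157K replicate 2 (-0.44, limma adjusted p = 0.0411).

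Ratios within a library do not depend on the library's total, and they put the proteases and their partners side by side. MMP1 over TIMP1 was 1.67, 1.56 and 1.67 with R157S, 0.807, 0.837 and 0.91 with R157K, 1.14, 1.25 and 1.11 with R157F, and 2.96, 4.24 and 2.65 with WT. No groups overlapped in this ratio, and with R157K alone TIMP1 transcripts exceeded those of MMP1 in every library. MMP1 over MMP14 averaged 3.96 ± 0.0759 with R157S, 2.43 ± 0.588 with R157K, 2.6 ± 0.0982 with R157F and 8.36 ± 1.94 with WT (SD, n = 3 each). MMP2 over MMP14, a protease and its activator, averaged 1.32 ± 0.0605 with R157S, 0.568 ± 0.019 with R157K, 0.96 ± 0.0678 with R157F and 1.1 ± 0.104 with WT. The R157K value had a narrow spread even though R157K replicate 2 was low in both genes, and the R157F and WT libraries overlapped. MMP14 over TIMP2 was 1.81 ± 0.134 with R157S, 3.23 ± 0.349 with R157K, 2.53 ± 0.157 with R157F and 1.64 ± 0.39 with WT. Such ratios carry the GC content and length of both transcripts, and no test was made on them.

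**Figure D4:**
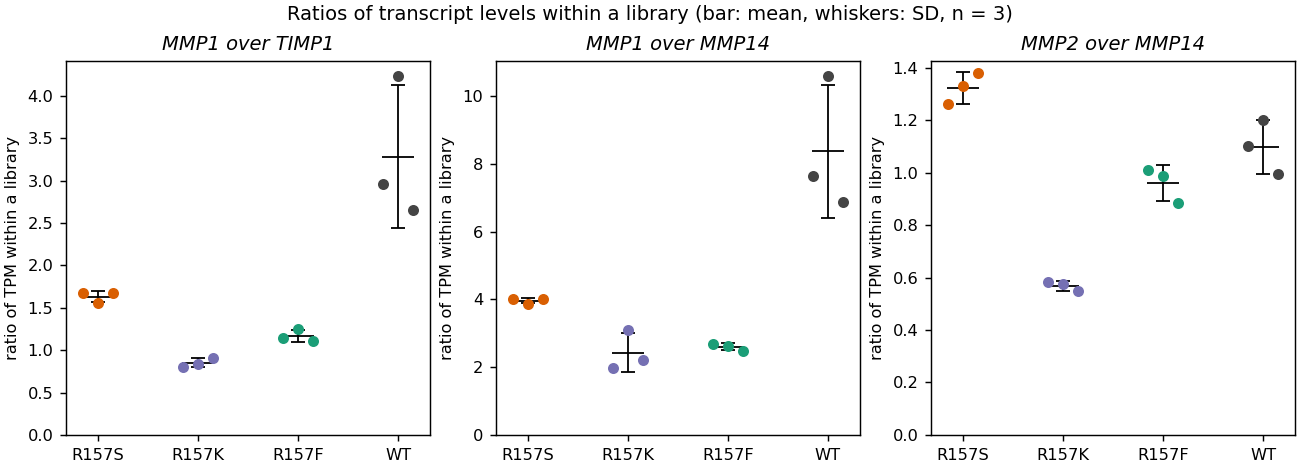
Ratio of transcript levels within each library (vertical axis, from 0, no unit) for 3 pairs of genes, by plasmid; points are libraries, bars the mean and whiskers the SD of 3 libraries. MMP1 over TIMP1 lies below 1 in the R157K libraries only, and MMP2 over MMP14 is lowest with R157K at 0.568.

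Of 17 other MMP genes, 6 passed the filter on low values: MMP11, MMP13, MMP15, MMP17, MMP19 and MMP28. Beside MMP13, 1 was called with R157S, 1 with R157K and 4 with R157F, all of them higher than with WT. After median-ratio scaling these counts were 1, 4 and 4, so the lower count with R157K depends on the scaling, and with the trends removed 1 gene was called higher with each variant. MMP19 averaged 11.9 ± 0.68 TPM with R157S, 9.12 TPM with R157K, 11.4 ± 0.876 TPM with R157F and 7.08 ± 1.2 TPM with WT. Its change was called with R157S (log2 0.69, limma adjusted p = 0.0165) and R157F (0.63, limma adjusted p = 0.00253), not with R157K (0.33, limma adjusted p = 0.0552), and with the trends removed all 3 were called (0.51, 0.40 and 0.45). MMP17, a membrane-anchored MMP, averaged 5.93 ± 0.97 TPM with R157F and 2.56 ± 0.689 TPM with WT (0.97, limma adjusted p = 0.00159). The MMP17 change with R157K was 0.55 (limma adjusted p = 0.0266), and with the trends removed the values for R157K and R157F were -0.25 and -0.02, neither called.

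Counts of called genes in these lists are to be read against the shares of all genes called. Those were 7.6% higher and 12.8% lower with R157S, 17.3% and 46.2% with R157K, and 24.4% and 33.8% with R157F. With the trends removed, 6.06%, 42.4% and 28.8% of all genes were called in either direction. No list was tested as a set. Calls with R157S in the lists that follow depended on single libraries. Those of TFPI2 and THBS1 were made in all 6 fits that left out 1 library of R157S or WT, and those of the other genes named with R157S in 1 to 4 of the 6, MMP13 and MMP19 included.

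Among 14 genes of proteins that activate, anchor or restrain MMPs, 5 rose and 2 fell with R157S, 2 rose and 7 fell with R157K, and 6 rose and 6 fell with R157F. After median-ratio scaling 5 were higher and 1 lower with R157S, 5 and 6 with R157K, and 6 and 5 with R157F. The counts with the trends removed were 4 and 1, 4 and 4, and 6 and 1. TFPI2, a Kunitz-type protease inhibitor of the matrix, averaged 246 ± 27.3 TPM with R157S, 178 ± 11.6 TPM with R157K, 321 TPM with R157F and 505 ± 107 TPM with WT. It fell by 1.02, 1.48 and 0.64 with R157S, R157K and R157F (limma adjusted p = 0.00656, 3.89e-06 and 0.00262). The R157S and R157K changes of TFPI2 were called with the trends removed (-0.63 and -0.60) and that of R157F was not (0.03). RECK, a membrane-anchored MMP inhibitor, averaged 21.5 ± 1.26 TPM with R157K, 31.9 TPM with R157F and 45.1 ± 5.42 TPM with WT. RECK fell by 1.03 with R157K and 0.48 with R157F (limma adjusted p = 4.98e-06 and 0.00204), and with the trends removed the R157K change was called (-0.21) and the R157F change was not (-0.03).

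PCOLCE, an enhancer of procollagen processing, rose by 0.93, 1.13 and 1.32 with R157S, R157K and R157F (limma adjusted p = 0.0169, 2.27e-04 and 3.18e-04), and was called with the trends removed (0.52, 0.50 and 0.60). BSG, an inducer of MMP expression, rose by 0.72, 1.04 and 1.11 (limma adjusted p = 0.0279, 3.83e-04 and 6.10e-04), also called with the trends removed (0.30, 0.46 and 0.37). THBS1, a matrix protein that binds MMP2, averaged 642 ± 18 TPM with R157S, 354 ± 39.2 TPM with R157K, 588 ± 17.6 TPM with R157F and 419 ± 8.36 TPM with WT. THBS1 rose with R157S and R157F (0.62 and 0.49, limma adjusted p = 0.00694 and 7.97e-04) and fell with R157K (-0.25, limma adjusted p = 0.0262). The R157K direction turned after scaling (0.17, limma adjusted p = 0.0726) and with the trends removed (0.53, limma adjusted p = 5.31e-05), where the other values were 0.74 and 0.82. CD44, a docking site for MMPs at the cell surface, fell by 0.31, 1.33 and 0.65 with R157S, R157K and R157F (limma adjusted p = 0.0379, 8.26e-07 and 3.04e-04), and with the trends removed the last 2 were called (-0.55 and -0.27). CAV1, a protein of caveolae, fell by 1.26 with R157K and 0.67 with R157F (limma adjusted p = 7.08e-07 and 1.89e-04). The R157K change of CAV1 was called with the trends removed (-0.49) and the R157F change was not (-0.16, limma adjusted p = 0.194).

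In the plasminogen system, whose product plasmin activates MMP proenzymes, 7 of 9 genes were tested. With R157S and R157F only SERPINB2 was called and the other 6 were not. SERPINB2, an inhibitor of urokinase, averaged 23.3 ± 4.73 TPM with R157S, 15.6 ± 0.35 TPM with R157K, 24.5 ± 3.05 TPM with R157F and 39.6 ± 1.59 TPM with WT (SD, n = 3 each). It fell by 0.76, 1.29 and 0.68 (limma adjusted p = 0.0133, 6.62e-06 and 0.00133), and with the trends removed the R157K change was called (-0.52, limma adjusted p = 0.0105) and the other two were not. With R157K 3 of the 7 fell, the others being PLAU, the urokinase gene (-0.49, limma adjusted p = 0.00107), and SERPINE2 (-0.42, limma adjusted p = 0.00232). After median-ratio scaling PLAU and SERPINE2 were at -0.07 and -0.00 with R157K, neither called, and 1 of the 7 genes rose and 1 fell. Once the trends were removed 2 genes fell with R157S, 3 with R157K and 2 with R157F.

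Of 9 ADAM genes, all tested, 1 rose and 2 fell with R157S, 1 rose and 4 fell with R157K, and 2 rose and 3 fell with R157F. Both corrections moved these splits. After scaling 3 were higher and 1 lower with R157S, 2 and 3 with R157K, and 3 and 3 with R157F, and with the trends removed 1 gene with R157S and 1 with R157K were called, both higher, and 3 were higher and 1 lower with R157F. The sheddase genes ADAM17 and ADAM10 fell with R157K by 1.04 and 1.05 (limma adjusted p = 7.59e-06 and 9.24e-06), but their changes were -0.13 and 0.06 with the trends removed. ADAM33 rose by 0.66, 0.74 and 1.02 with R157S, R157K and R157F (limma adjusted p = 0.0223, 0.00124 and 3.92e-04). The R157S change of ADAM33 was not called with the trends removed (0.23, limma adjusted p = 0.122), and those of R157K and R157F were (0.31 and 0.28).

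Of 19 ADAMTS genes 13 were tested, and 6 rose and 1 fell with R157S, 6 rose and 4 fell with R157K, and 8 rose and 2 fell with R157F. After scaling the counts were 6 and 1, 7 and 3, and 8 and 1, and with the trends removed 3 rose with R157S, 7 rose and 1 fell with R157K, and 5 rose with R157F. The median log2 change of the tested ADAMTS genes was 0.41, 0.45 and 0.67, against -0.01, -0.34 and -0.08 for all genes. These counts and medians include ADAMTS15, at 0.42 to 0.53 TPM with WT. It passed the filter on low values through variant libraries alone, which favoured a rise. ADAMTS7 averaged 23.9 ± 1.5 TPM with R157S, 25.5 ± 5.77 TPM with R157K, 33.9 ± 1.48 TPM with R157F and 13.1 ± 3.37 TPM with WT, and ADAMTS7 was called in all 3 comparisons, also with the trends removed (0.39, 0.44 and 0.50). ADAMTS2, a procollagen N-proteinase, rose by 0.75, 0.61 and 1.03 with R157S, R157K and R157F (limma adjusted p = 0.0183, 0.00496 and 4.14e-04), also with the trends removed (0.44, 0.65 and 0.63). ADAMTS1 fell by 0.53, 1.12 and 0.57 (limma adjusted p = 0.0414, 7.31e-05 and 0.0105), and with the trends removed only the R157K change was called (-0.54, limma adjusted p = 0.016).

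Among 10 tested of 14 cathepsin and other matrix protease genes, 3 rose and 2 fell with R157S, 2 rose and 4 fell with R157K, and 3 rose and 3 fell with R157F. After scaling the counts were 3 and 2, 6 and 3, and 5 and 3. None of the 5 calls with R157S held with the trends removed, when 1 gene was higher and 3 were lower with R157K, and 2 were higher and 2 lower with R157F. CTSS, a lysosomal cysteine protease, fell by 0.48, 0.86 and 0.75 (limma adjusted p = 0.0165, 9.90e-06 and 2.06e-04), and with the trends removed none of these was called. BMP1, the procollagen C-proteinase, rose by 0.71, 0.74 and 1.12 with R157S, R157K and R157F (limma adjusted p = 0.0358, 0.00781 and 9.38e-04), and with the trends removed the R157K and R157F changes were called (0.40 and 0.44). FAP, a protease of activated fibroblasts, averaged 6.71 ± 1.22 TPM with R157K, 10.5 TPM with R157F and 19.9 ± 4.36 TPM with WT. FAP fell by 1.43 and 0.85 (limma adjusted p = 7.07e-05 and 0.00436), and with the trends removed the R157K change was called (-0.47) and the R157F change was not (-0.12).

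Genes of factors linked to the control of MMP transcription, not all of them inducers, formed a list of 22, of which 18 were tested. With R157S 3 rose and 2 fell, with R157K 3 rose and 8 fell, and with R157F 7 rose and 5 fell. After scaling the counts were 4 and 2, 6 and 8, and 8 and 3, and with the trends removed 2 rose with R157S, 2 rose and 7 fell with R157K, and 4 rose and 3 fell with R157F. JUNB, an AP-1 subunit, averaged 70.4 ± 7.42 TPM with R157S, 131 ± 24 TPM with R157K, 128 ± 2.54 TPM with R157F and 36.3 ± 12.8 TPM with WT (SD, n = 3 each). It rose by 0.99, 1.86 and 1.85 (limma adjusted p = 0.0186, 1.32e-05 and 1.55e-04), and by 0.53, 1.10 and 1.00 with the trends removed, all called. JUN rose by 1.00 with R157K and 1.14 with R157F (limma adjusted p = 7.50e-04 and 6.70e-04), also with the trends removed (1.01 and 0.80), and its R157S difference of 0.36 was not called (limma adjusted p = 0.189). JUND rose by 0.87, 0.79 and 1.57 with R157S, R157K and R157F (limma adjusted p = 0.0306, 0.0108 and 3.59e-04). The JUND change with the trends removed was called with R157F (0.52) and not with R157S (0.37, limma adjusted p = 0.059) or R157K (-0.20). FOS was at 2.95 TPM with R157S, 3.33 TPM with R157K, 3.78 TPM with R157F and 3.44 TPM with WT on average, with no call. FOSL1, the most abundant AP-1 gene of the list, averaged 595 TPM with R157S, 469 TPM with R157K, 698 TPM with R157F and 529 TPM with WT. Its changes of 0.20, -0.16 and 0.43 were not called (limma adjusted p = 0.417, 0.461 and 0.0542). With the trends removed FOSL1 was lower with R157K (-0.68, limma adjusted p = 1.22e-04) and not called with R157S or R157F (-0.18 each).

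IL1R1, the receptor for the MMP-inducing cytokine interleukin-1, averaged 48.9 ± 3.49 TPM with R157S, 24.6 ± 2.53 TPM with R157K, 36.8 ± 3.5 TPM with R157F and 71.2 ± 12.8 TPM with WT. It fell by 0.52, 1.48 and 0.92 (limma adjusted p = 0.0256, 2.50e-06 and 3.04e-04), and with the trends removed by 0.65 with R157K and 0.48 with R157F, both called, whereas the R157S change of -0.31 was not (limma adjusted p = 0.0656). RUNX1, a transcription factor, fell by 0.46, 1.02 and 0.54 with R157S, R157K and R157F (limma adjusted p = 0.0343, 2.92e-05 and 0.00446). Only the R157K change of RUNX1 was called with the trends removed (-0.27, limma adjusted p = 0.0409).

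The genes whose log2(TPM + 1) ran most closely with a member over the 12 libraries are given as a description, since the libraries share 4 plasmids and the trends on GC content and length. For MMP1 they were STC1, POPDC3 and GK (Pearson's r 0.992, 0.989 and 0.983), and for MMP3 KNSTRN, PLEK2 and SNX16 (0.958, 0.957 and 0.955). MMP2 ran with KIRREL1, AXL and DAG1 (0.989, 0.983 and 0.982), and MMP14 with KDM4B, TBX2 and ZBTB7A (0.992, 0.989 and 0.988). For TIMP1 they were ATP6V0B, POP7 and RANBP1 (0.983, 0.983 and 0.982), and for TIMP3 SCAMP2, GLG1 and PPP1R10 (0.990, 0.987 and 0.984). TIMP2 was most like RNF216, KDM4A and PGD (0.982, 0.977 and 0.977), and MMP16 most like SOS1, MARCHF5 and SLC37A3 (0.987, 0.984 and 0.983). The low MMP10 and TIMP4 had looser partners, ALG10B at 0.915 and RNLS at 0.870.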

How the data were processed

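The deposited table holds the authors' TPM for each gene in each library. The submitters' processing notes name RSEM. Not given in the sources used here are the aligner, genome build, annotation and strand setting. TPM of a library sum to between 999999.03 and 1000000.89, so depth is unknown and no counting interval was computed. Groups and replicate numbers come from the labels, and 0 pairs of libraries were identical. No label ties the libraries of a group to separate cultures, so a p-value reflects the spread among these samples alone, and that spread may be technical.

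The 14718 genes that reached 1 TPM in 3 or more of the 12 libraries were tested as log2(TPM + 1), which understates changes of low genes, with limma 3.58.1 in R 4.3.3 (1 coefficient per plasmid, 8 residual degrees of freedom, trended moderation, Benjamini-Hochberg adjustment). The model was tested on simulated data with independent noise, few changed genes and no trend on GC content. That check does not cover the trends and the wide changes of these data. Exact two-sided permutation tests of 3 libraries against 3 cannot give a p under 0.1, and that was the value for MMP1 and MMP3 in each variant against WT. Coordinates, GC content and length are those of GENCODE 29 (GRCh38), which holds 58174 of the table's genes and may not be the authors' annotation. Trends were natural splines with 5 degrees of freedom on GC content and log2 length, removed from each library. Motifs were searched in RefSeq promoters (GRCh38.p14).

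The labels' batch tag repeats the replicate number, so the number was used as a block in an alternative. Correlations of same-numbered deviations from group means were -0.128 to 0.393. Other alternatives were a pseudocount of 0.1, no filter, median-ratio scaling, only the compared groups, and leaving out each library. The members, lists and alternatives were chosen with earlier results of these data known. The rule for named genes took the 10 members, up to 4 called genes per list and variant with the lowest adjusted p (most of which the text gives), and the 3 protein-coding genes with a mean of at least 2 TPM that were most like each member. MMP11, MMP15, MMP28, FOS and FOSL1 were named after their values were seen.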

Additional observations from a re-analysis of the deposited data

How the results depend on the processing

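Of 70 results (10 genes in 6 comparisons and in the test of all plasmids), 990 values under alternatives were computed. Of these, 877 kept the direction and side of the threshold, with 31 changes of sign among values called in neither version counted here, 96 lost the call, 11 gained it and 6 reversed. The cause of these changes was not tested. Reversed were MMP2 and TIMP2 for R157K against WT (0.06 and 0.00) and MMP1 for R157K against R157F (0.02) under median-ratio scaling. TIMP3 for R157K against R157F reversed with the trends removed, with and without the replicate block (0.03 in both). TIMP1 for R157F against WT reversed with the trends removed and without WT replicate 2 (-0.05), a setting chosen after seeing the data.

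For R157S against WT, 3 members were called, 1 with only the compared groups in the model, and 2 to 5 without 1 library (5 without WT replicate 3). For R157K against WT it was 9, against 5 under scaling, 5 with the trends removed, 4 with the replicate block and the trends removed, and 4 without WT replicate 2 and the trends (8 to 9 without 1 library). For R157F against WT it was 7, against 4 with the trends removed, 4 with the block as well, and 2 without WT replicate 2 and the trends (6 to 7 without 1 library). For R157S against R157K 6 calls became 2 with the trends removed, with or without the block (5 to 7 without 1 library). For R157S against R157F the 1 call became 0 by limma without the filter, under scaling, with the trends removed, with the replicate block and with both, and 0 to 0 without 1 library, while 4 genes had an unadjusted p under 0.05 and 4 were called with only these groups. For R157K against R157F 4 calls became 1 under scaling, with the trends removed and with the block and trends removed (3 to 4 without 1 library). In the test of all plasmids 9 became 4 with the trends removed, with or without the replicate block (8 to 9 without 1 library). The replicate block alone changed no other call of a member.

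The number of all genes called for R157S against WT was 3002, but 590 without the filter, 862 with the trends removed, 678 with the block as well, 475 without WT replicate 2 and the trends, 11 with only these groups and 39 to 5749 without 1 library. For R157S against R157F it was 798, against 344, 339 (scaling), 498, 329 and 4725 in the like settings, and 33 to 353 without 1 library. With the trends removed 6036, 4091, 4070 and 1648 genes were called for R157K and R157F against WT, R157S against R157K and R157K against R157F, against 9359, 8571, 7371 and 4370. Scaling left 4826 for R157S against R157K and 1342 for R157K against R157F. As depth is unknown, the precision of low genes such as TIMP4 and MMP16 rests on the 3 libraries alone.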
